A study of Rattus norvegicus with 10 samples.

Results

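The data were microarray signals from the gastrocnemius, a calf muscle made mostly of fast fibres, of male Wistar rats that were 6 weeks old when the feeding period began. They received powdered AIN-93G diet in the amount recorded in freely fed rats (control, 0% restriction) or 5%, 10%, 20% or 30% less of it (calorie restriction, CR), for 1 week or for 1 month, and all were fasted for 16 h before the muscle was taken. RNA of the 5 rats of each of the 10 groups was pooled and run on 1 array, so that 5 arrays of 1 month were set against 5 of 1 week, and these 10 arrays are the whole series. Each restriction level stood once on either side. By design the control pair differed in age and feeding time, and the other pairs also in the time spent on restriction. Each pair, the controls included, also set an array of the 1-week set against an array of the 1-month set. The comparison asks which transcripts differ in muscle of young rats that have grown for longer, whatever the restriction.

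Muscle growth after weaning is largely an increase in the size of existing fibres. Satellite cells, the stem cells of muscle, divide and fuse with fibres early on and later become quiescent, the fetal forms of contractile proteins are replaced by adult ones, and fibroblasts slow their output of collagen as the connective tissue matures. A set of imprinted genes, which are read from 1 parental copy, controls growth before and shortly after birth and is then turned down in many organs. Breakdown of muscle protein is controlled by FOXO transcription factors, which switch on ubiquitin ligases and autophagy genes, and by glucocorticoids, the adrenal steroids whose receptor acts on many of the same genes.

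Array quality moved with duration, and the design put all 1-week arrays in 1 set and all 1-month arrays in another, so array handling and duration cannot be told apart. The trimmed mean signal was 99.1 to 99.6 on the 1-week arrays and 85.8 to 86.3 on the 1-month arrays. The ratio of 5' to 3' signal of the poly-A spike RNAs, which are added before labelling, lay between 0.26 and 0.38 on the 1-week arrays and between 0.72 and 0.82 on the 1-month arrays. The 3' to 5' ratio of GAPDH, a sign of RNA integrity, was 1.03 to 1.08 and 1.02 to 1.08. For the 1-week control and 1-week 5% CR arrays, titles and restriction labels gave 1 feeding and the second description lines the opposite one. Titles were followed, and the effect of exchanging the 2 arrays on the calls is given with the other alternatives.

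Signals are given here as multiples of the median signal of their array, and a difference is the mean over the 5 levels of log2(1 month) minus log2(1 week) of these multiples. Its standard error (SE) is the moderated one of limma, which shares variance between probe sets. A gene was called at an adjusted p under 0.05 in limma with Benjamini-Hochberg adjustment over all 15521 probe sets tested. Of these, 586 were higher at 1 month (3.78%) and 341 lower (2.2%), together 927 (5.97%). Counted by gene, with the brightest probe set for each, 373 of 9170 genes were higher (4.07%) and 196 lower (2.14%), together 569 (6.21%). All 5 differences had the same sign for 855 of the 927 called probe sets and for 3024 of all 15521 (19.5%), and the arrays of the durations did not overlap for 533 of the called and 1076 of all (6.93%). The split depended on the scaling. With signals as deposited, whose median difference over all probe sets was −0.21 rather than 0.08, 171 were higher and 4694 lower, and with quantile normalization 632 were higher and 761 lower. Both of these scalings moved differences downward. All 341 falls were also called lower with the deposited signals and 337 of them with quantile normalization, against 171 and 514 of the 586 rises.

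**Figure D1:**
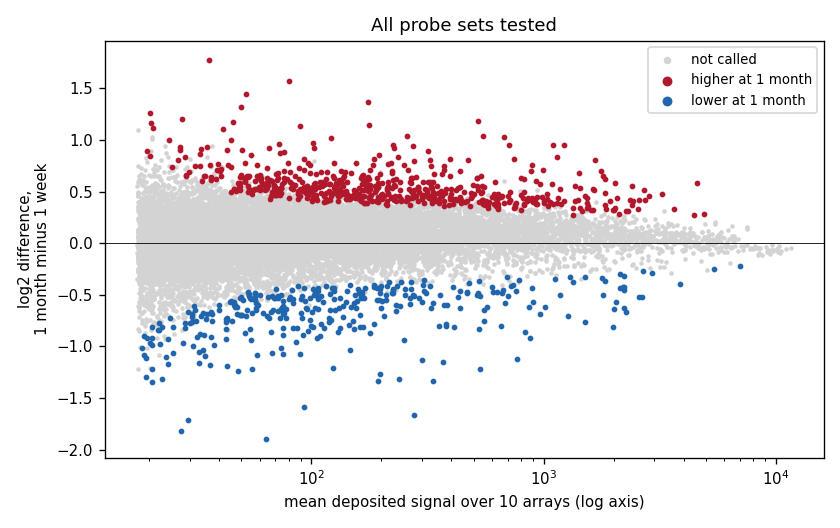
Log2 difference between 1 month and 1 week (vertical axis) against the mean deposited signal over the 10 arrays (horizontal log axis) for the 15521 probe sets tested, with the 586 called higher in red and the 341 called lower in blue. Differences among called probe sets ran from −1.90 to 1.78, and dim probe sets needed a larger difference to be called.

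The 5 probe sets that were at least 2-fold lower at every level made up 0.0322% of those tested, and 0 were 2-fold higher at every level. They carried Cdkn1c, Igf2, Gatm and Cthrc1, and 1 carried no gene in the annotation. The unnamed probe set had the largest fall of all (−1.90 ± 0.13, adjusted p = 4.28e-07), with differences of −1.62 to −2.20 across the levels.

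Part of the imprinted growth genes were lower after 1 month. Of 13 tested, 7 were called lower and 0 higher, against 2.14% of all genes called lower, and the list median was −0.53 against 0.09 for all genes. With each restriction level left out in turn 4 to 7 were called lower, the fewest without 30% CR. Cdkn1c, which encodes the cell cycle inhibitor p57, had signals of 31.7, 25.0, 25.7, 22.9 and 24.1 times the array median on the 1-week arrays from control to 30% CR and of 10.3, 6.87, 6.96, 7.45 and 9.49 on the 1-month arrays. Every 1-month array was below every 1-week array, and the fall was 3.18-fold (−1.67 ± 0.11, moderated SE, 5 pairs, adjusted p = 4.28e-07). Igf2, the growth factor that dominates before birth, stood at 36.2, 26.8, 26.7, 24.6 and 25.1 times the median after 1 week and at 11.5, 9.13, 12.1, 10.7 and 11.4 after 1 month. Here too every 1-month array was below every 1-week array, and the fall was 2.52-fold (−1.33 ± 0.11, adjusted p = 6.42e-06). Mest, a member of the alpha/beta hydrolase family, fell by 0.78 ± 0.12 on the log2 scale (adjusted p = 0.000816), and its ranges of 6.11 to 9.89 on 1-week arrays and 3.27 to 6.52 on 1-month arrays overlapped. Ndn, which encodes necdin, fell by 0.64 ± 0.16 (adjusted p = 0.0278). Plagl1, a zinc finger transcription factor, differed by −0.53 ± 0.14 (adjusted p = 0.0399), but its control pair was level, with signals of 2.97 and 3.04. The other 2 called were Grb10, an adaptor that restrains insulin signalling, and H19, a noncoding RNA beside Igf2, at −0.50 and −0.22. H19 had the smallest difference of the 7, and Dlk1 (−0.79) and Nnat (−0.74) had larger ones that did not pass.

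**Figure D2:**
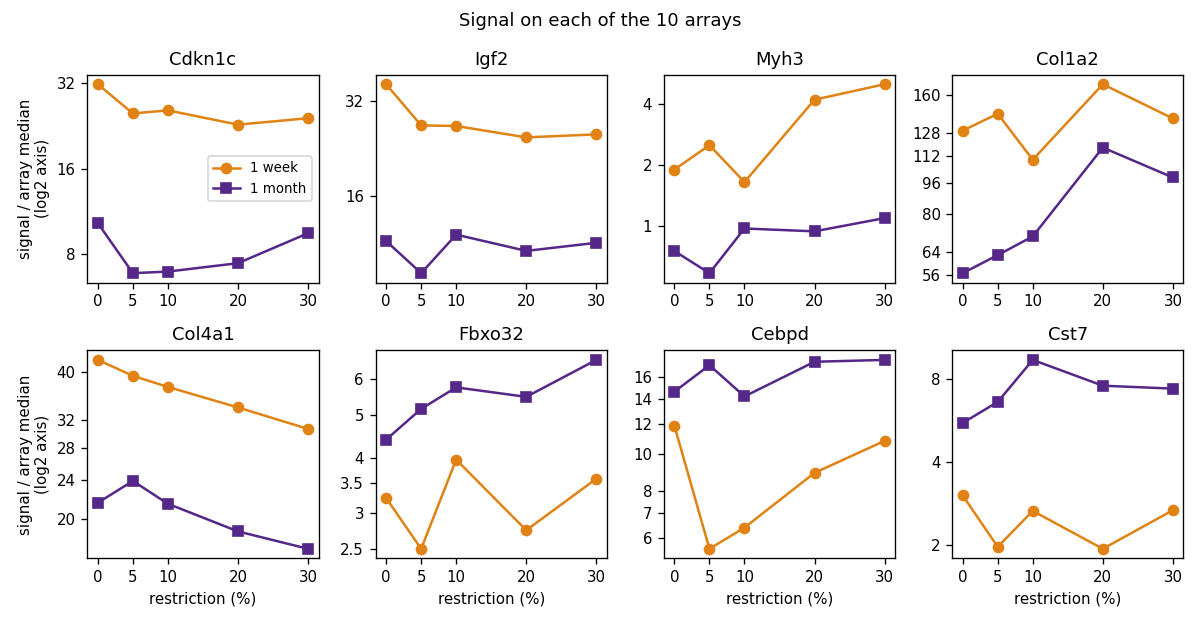
Signal as a multiple of the array median (vertical log2 axis) against the level of restriction in percent (horizontal axis) on each of the 10 arrays, for 8 genes, with orange circles for 1 week and purple squares for 1 month; each point is 1 array of 5 pooled rats. Cdkn1c, Igf2, Myh3 and Col4a1 lay lower and Fbxo32, Cebpd and Cst7 higher at 1 month with no overlap, while the highest 1-month value of Col1a2 (118) was above the lowest 1-week value (110).

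Collagen genes fell together. Of 17 collagen chains tested, 14 were called lower and 0 higher, all 17 differences were negative, and the median was −0.51. For 10 of the 17 the arrays of the durations did not overlap, against 7.19% of all genes. Without each level in turn 10 to 14 chains were called lower, the fewest without 5% or 20% CR, and 13 without the controls, and 6 were called when the variance trend was left out. Col1a2, a chain of the fibrillar collagen of tendon and muscle sheaths, had signals of 130.1, 144, 109.7, 171 and 139.7 on the 1-week arrays in the order of rising restriction and 56.5, 62.8, 70.01, 118 and 98.9 on the 1-month arrays. It was lower at every level, by 1.20 log2 in the controls and by 0.50 at 30% CR, and fell 1.76-fold (−0.82 ± 0.11, adjusted p = 0.000278). Its partner Col1a1 fell by 0.63 ± 0.12 and Col3a1, the reticular collagen, by 0.40. The largest fall was that of Col5a3, a minor chain of type V collagen (−1.24 ± 0.19, adjusted p = 0.00118), with ranges of 2.21 to 5.89 on 1-week arrays and 1.07 to 4.36 on 1-month arrays that overlapped only through the 1-month control. Col11a1, a chain of type XI collagen, fell by 1.00 ± 0.23 (adjusted p = 0.0174), with differences from −1.99 in the controls to −0.24 at 30% CR. Col11a1 was dim, with a mean deposited signal of 31.1, and its difference was −0.52 with log2 of signal plus 32. The chains not called were Col16a1 (−0.28), Col18a1 (−0.25) and Col12a1 (−0.21).

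The paired chains of type IV collagen, Col4a1 and Col4a2, form the network of the basement membrane that wraps each fibre and capillary. Col4a1 had signals of 42.4, 39.4, 37.3, 33.9 and 30.6 at 1 week, control to 30% CR, and 21.6, 23.9, 21.5, 18.9 and 17.4 at 1 month. The ranges were separate, and the fall was −0.83 ± 0.09 (adjusted p = 9.65e-05). Col4a2 stood at 12.6, 12.1, 12.0, 9.76 and 9.57 and then at 6.49, 6.86, 7.29, 5.31 and 5.94. Its ranges were separate as well, and its fall of −0.81 ± 0.11 (adjusted p = 0.000372) was within 1 SE of that of Col4a1. These genes are transcribed in opposite directions from neighbouring starts, and the whole stretch of 76 bases between the starts in RefSeq (GRCr8, chr16:84885521-84885596, plus strand, read towards Col4a1) is shown because both falls were alike. The capitals mark the single match, on the minus strand, to the GC box letters GGGCGG, which 34.9% of all 27457 promoter windows hold in 300 bases around the start on either strand.
Col4a1 and Col4a2: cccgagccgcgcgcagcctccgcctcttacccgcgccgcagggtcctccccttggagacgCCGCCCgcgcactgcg

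The other parts of the basement membrane and the enzymes that link collagen moved the same way in part. Of 10 basement membrane genes, 5 were called lower and 0 higher, beside 2.14% and 4.07% of all genes (median −0.42). Nid1, the nidogen that bridges laminin and collagen IV, had 62.9, 64.3, 64.0, 65.2 and 70.7 times the array median after 1 week and 35.4, 46.3, 50.5, 39.0 and 43.7 after 1 month, with no overlap (−0.62 ± 0.09, adjusted p = 0.00102). The laminin chains Lama4, Lamb1 and Lamc1 fell by 0.64, 0.55 and 0.51, and Nid2 by 0.53. Lama2, the laminin chain of mature muscle fibres, was at −0.30, and Lamb2, the chain of the neuromuscular junction, at 0.22, and neither passed. Of 17 genes for the folding and cross-linking of collagen, 6 were lower and 0 higher. All 3 lysyl oxidases on the list, copper enzymes that cross-link collagen and elastin, were among them. Lox had 5.16, 5.38, 4.12, 6.13 and 4.31 at 1 week and 2.81, 2.65, 2.97, 3.75 and 3.37 at 1 month, without overlap, and fell by 0.69 ± 0.13 (adjusted p = 0.00561). Loxl1 fell by 0.83 ± 0.13 and Loxl2 by 0.73 ± 0.12. Fkbp10, a collagen prolyl isomerase, fell by 0.67, Pcolce, an enhancer of procollagen cleavage, by 0.50 and Serpinh1, the collagen chaperone, by 0.43. The prolyl hydroxylases P4ha1 (0.21) and P4ha2 (0.29) were not called.

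Among 21 matrix glycoproteins and proteoglycans, 4 were lower and 0 higher, beside 2.14% and 4.07% of all genes (median −0.26). Mfap4, a protein of elastic microfibrils, had signals of 14.8, 16.3, 13.7, 20.3 and 15.7 and then 8.15, 5.73, 5.69, 6.71 and 5.79. It fell 2.52-fold without overlap (−1.33 ± 0.12, adjusted p = 1.93e-05). Bgn, the small proteoglycan biglycan, fell by 0.75 ± 0.13, Postn, or periostin, by 0.52 ± 0.11, and Lum, or lumican, by 0.41 ± 0.11. Of 11 matrix proteases and inhibitors only Mmp14, the membrane protease that activates gelatinase A, passed (−0.42 ± 0.12, adjusted p = 0.0451), and it did so with all levels or without 5% CR alone (adjusted p = 0.0601 to 0.138 without each other level). The list median was 0.05, and −0.24 with signals as deposited. Outside these lists Cthrc1, a secreted protein made by cells that lay down collagen, fell from a mean of 1.89 ± 0.37 (SD, n = 5 arrays) to 0.763 ± 0.164 times the median (−1.31 ± 0.20, adjusted p = 0.00103). Cthrc1 was dim, with a mean deposited signal of 22.67, and its difference was −0.56 with log2 of signal plus 32.

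In bulk RNA fewer cells of a type and less RNA per cell cannot be told apart, so marker genes of the cells that make matrix are given beside these falls. Of 11 fibroblast markers, 2 were higher and 2 lower, beside 4.07% and 2.14% of all genes. The markers called were 1 each way without 20% or 30% CR, and 0 higher and 6 lower with signals as deposited. Gsn, which encodes gelsolin, rose by 0.41 ± 0.08 and Pi16, a peptidase inhibitor of resting fibroblasts, by 0.57 ± 0.14, while Thy1 fell by 1.18 ± 0.21 and Smoc2 by 0.49 ± 0.11. The summed level of the list was 219 to 277 on the 1-week arrays and 237 to 289 on the 1-month arrays, which overlapped. Gsn alone gave 101 to 130 and 135 to 161 of it. The mean log2 level of the list was lower at 1 month in each pair. It ran from 3.09 in the controls to 3.49 at 30% CR after 1 week and from 3.05 to 3.45 after 1 month. The summed level of the collagen chains was 674 to 791 and 446 to 578, which did not overlap. Of 4 tendon cell markers 2 were lower, with summed levels of 23.4 to 33.9 and 20.1 to 27.3. Tnmd, or tenomodulin, fell by 0.83 ± 0.17 (adjusted p = 0.00745), and Egr1, which is also an immediate-early gene, by 0.64 ± 0.13. The part of cell numbers in the falls of matrix genes was not tested.

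**Figure D3:**
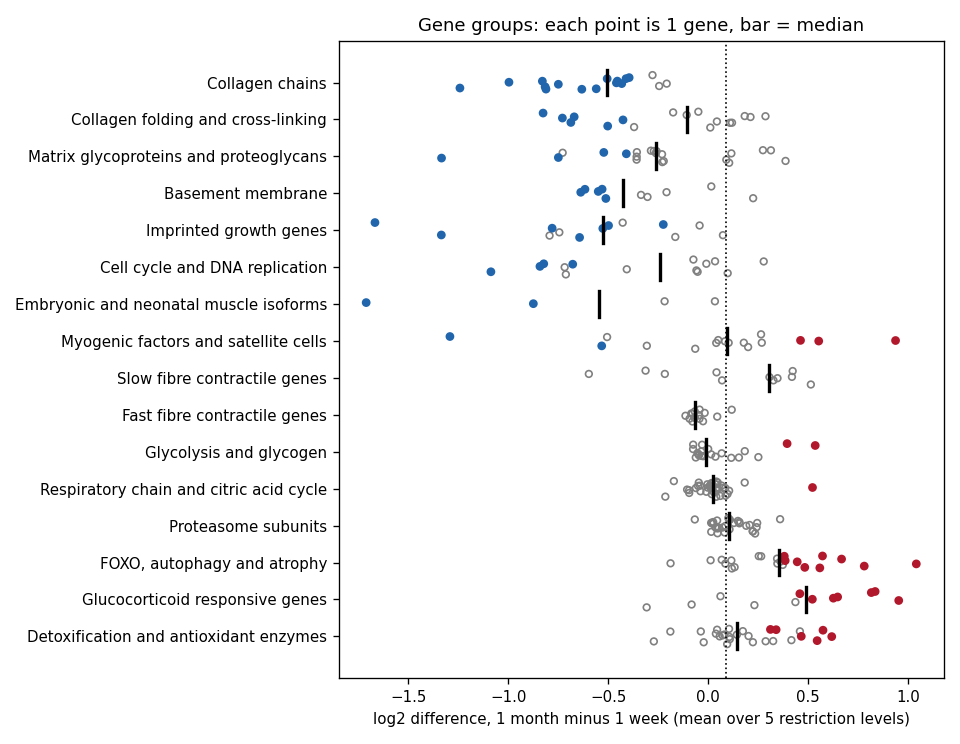
Log2 difference between 1 month and 1 week (horizontal axis) for each gene of 16 groups (vertical axis), with filled points for genes called higher (red) or lower (blue), open points for genes not called, a bar at the median of each group and a dotted line at the median of all 9170 genes (0.09). All 17 collagen chains lay below 0, and 21 of 22 FOXO, autophagy and atrophy genes above it.

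Cell cycle genes were mostly too dim to test. Of 44 on the list 14 passed the signal filter. Of these, 4 were lower and 0 higher, beside 2.14% and 4.07% of all genes (median −0.24). Stmn1, a regulator of microtubules that is abundant in dividing cells, had signals of 5.55, 6.08, 5.71, 6.02 and 6.86 at 1 week and 3.91, 3.19, 3.15, 3.47 and 3.38 at 1 month. The ranges did not overlap, and the fall was 1.77-fold (−0.82 ± 0.12, adjusted p = 0.000816). Ccnd1, the cyclin that carries cells out of quiescence, fell by 0.68 ± 0.15 (adjusted p = 0.011), and all 3 of its probe sets were called lower. Nusap1, a spindle protein, fell by 0.84 ± 0.24. It was dim, with a mean deposited signal of 22.12, and its other probe set tested did not pass. Ccnb2, a cyclin of mitosis, went from 1.74, 1.48, 1.45, 1.30 and 1.28 to 1.19, 0.786, 0.307, 0.486 and 1.03 times the median, near the lower edge of what the filter let through (−1.09 ± 0.28, adjusted p = 0.0293). Mcm6 (−0.72) and Cdca3 (−0.71) did not pass. Ccnb2 lost its call without 10% CR (−0.80, adjusted p = 0.108) or 20% CR (−1.004, adjusted p = 0.0795), and Nusap1 without any level but 10% CR (−0.58 without 20% CR). The 140 bases before the start of Ccnb2 (RefSeq, GRCr8, chr8:79981659-79981798, minus strand) are shown because they hold letters known from promoters of mitotic genes. The capitals mark 3 CCAAT boxes, spaced evenly at −134, −101 and −68, and at −43 the letters TTTGAA of the cell cycle homology region. Windows with at least 1 match on either strand make up 37.7% of all for CCAAT and 18.1% for TTTGAA. Of the 4 called genes 3 had a window in the table, and 3 and 2 of these held the respective letters.
Ccnb2: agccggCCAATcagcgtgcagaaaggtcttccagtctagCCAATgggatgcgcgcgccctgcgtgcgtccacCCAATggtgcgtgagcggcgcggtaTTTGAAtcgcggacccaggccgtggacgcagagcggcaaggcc

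Genes of immature muscle were among the falls. Myh3, the embryonic myosin heavy chain, had the largest fall of a named gene with median centring and with signals as deposited, while Cdkn1c fell more with quantile normalization, loess and log2 of signal plus 32 (−1.63, against −0.87 for Myh3). Its signals were 1.90, 2.50, 1.64, 4.20 and 5.00 times the array median at 1 week and 0.750, 0.583, 0.969, 0.939 and 1.09 at 1 month. Every 1-month array lay below every 1-week array, the 1-week values were highest at 20% and 30% CR, and the fall was 3.27-fold (−1.71 ± 0.22, adjusted p = 0.000243). The 1-month signals were among the dim ones, close to the array median. Nes, which encodes nestin, the intermediate filament of immature muscle and nerve cells, fell by 0.87 ± 0.14. Myl4 (−0.22) and Ncam1 (0.03), the other tested members, did not pass. Mymk, the membrane protein myomaker that lets muscle cells fuse, had signals of 2.06, 1.98, 1.42, 1.29 and 1.29 and then 1.02, 0.577, 0.448, 0.693 and 0.606. It fell 2.45-fold with no overlap (−1.29 ± 0.24, adjusted p = 0.00429). Mymk was dim, with a mean deposited signal of 19.35, and its difference was −0.49 with log2 of signal plus 32.

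Myogenic transcription factors moved apart. Of 16 myogenic and satellite cell genes, 3 were higher and 2 lower, beside 4.07% and 2.14% of all genes. Myog, or myogenin, which drives differentiation, fell by 0.53 ± 0.12 (adjusted p = 0.0142). Myf6, the factor of the same family that prevails in mature fibres, had 114, 85.5, 86.6, 119 and 116 at 1 week and 131, 138, 161, 145 and 187 at 1 month. It was higher at all 5 levels with no overlap and rose 1.47-fold (0.55 ± 0.10, adjusted p = 0.00257). Mef2d rose by 0.46 ± 0.13, a call held without 10% CR but lost without each of the other levels, and Sdc4, a surface proteoglycan found on satellite cells among others, by 0.94 ± 0.10. Myod1 was at 0.05 and Mstn, or myostatin, at 0.10, and neither passed. Chrna1, the alpha subunit of the acetylcholine receptor, was the 1 gene called of 9 for the neuromuscular junction (11.1%, against 6.21% of all genes). It fell by 0.65 ± 0.15 (adjusted p = 0.0176). Mybph, a myosin binding protein, fell by 1.13 ± 0.14, and Atp1b4, a muscle protein related to the sodium pump, by 1.59 ± 0.17, with a 1-month range of 1.19 to 6.61 against 6.40 to 13.1.

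Genes of the adult contractile apparatus did not pass at their brightest probe sets. Of 15 fast fibre genes 0 were called in limma (0 at an unadjusted p under 0.05), and their differences lay between −0.11 and 0.12, although 13 were called lower with signals as deposited (median −0.36) and 8 with log2 of signal plus 32. Of 17 genes of excitation-contraction coupling, which links the nerve signal to calcium release, 0 were called (2 at an unadjusted p under 0.05), and of 10 general skeletal muscle markers 0 were called (2 at an unadjusted p under 0.05). With signals as deposited 11 and 9 of these were called lower. The summed level of the muscle markers, from 3202 to 3852 times the array median on the 1-week arrays and from 2963 to 3684 on the 1-month arrays, bears out the labelled tissue on all arrays. Of 11 slow fibre genes 0 were called (5 at an unadjusted p under 0.05), and their median difference was 1.56 in the controls and −0.43 to 0.47 at the restricted levels. With signals as deposited 2 were lower, without the controls 1 was lower, and without 30% CR 1 was higher. Casq2 came closest in limma (−0.60 ± 0.17, adjusted p = 0.0503), with 0.46 in the controls and −0.69 to −0.96 at the restricted levels. Its other probe set was called lower. Of 16 alternatives, 7 called Casq2 lower and 5 called Tpm3 lower (−0.31 ± 0.11). Myh7, the slow myosin, was read after its values were seen, with 23.1, 101, 49.5, 121 and 145 at 1 week and 77.3, 83.3, 76.0, 124 and 104 at 1 month. The 1-week control was the low array, and the other 4 pairs had differences of both signs.

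Of 22 FOXO, autophagy and atrophy genes, 9 were called higher, 0 lower and 13 neither way after 1 month, against 4.07% of all genes called higher, and 21 of 22 differences were positive. The median was 0.35, and 0.06 with signals as deposited, where the median of all genes was −0.20. The count rested in part on single levels, with 4 called higher without 10% CR, 5 without 20%, 6 without 5% or 30% and 11 without the controls. It was 2 without the variance trend, and 4 higher and 1 lower with signals as deposited. Fbxo32, the muscle ubiquitin ligase atrogin-1, had signals of 3.25, 2.50, 3.96, 2.75 and 3.59 on the 1-week arrays and 4.39, 5.15, 5.75, 5.48 and 6.63 on the 1-month arrays. It was higher at all 5 levels without overlap and rose 1.72-fold (0.78 ± 0.13, adjusted p = 0.00194). Ddit4, an inhibitor of the growth kinase mTORC1, had 13.7, 3.90, 6.49, 8.93 and 23.6 and 14.6, 13.4, 18.2, 25.0 and 30.2. Its control pair was nearly level and its 30% pair close, while the 1-month array was clearly above the 1-week array at 5%, 10% and 20% CR, and the mean rise was 1.04 ± 0.19 (adjusted p = 0.00472). Sesn1, another inhibitor of mTORC1, rose by 0.67 ± 0.12, Gabarapl1, an autophagosome protein, by 0.57 ± 0.12, and Klf15, a transcription factor of amino acid breakdown, by 0.56 ± 0.15.

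Trim63, the ubiquitin ligase MuRF1, was the smallest of the 9 rises and was singled out after its values were seen. Its signals were 60.9, 50.9, 46.8, 51.6 and 63.6 at 1 week and 59.3, 59.1, 73.3, 71.5 and 96.9 at 1 month, with a difference of −0.04 in the controls and of 0.22 to 0.65 at the other levels (0.38 ± 0.10, adjusted p = 0.0368). The 230 bases before its start (RefSeq, GRCr8, chr5:151817006-151817235, plus strand) are shown because letters of both regulators of this gene group lie side by side in them. The first capitals, at −219 to −207, match the glucocorticoid receptor palindrome, searched as GNACA and TGTNC with any 3 bases between them, which 0.422% of all promoter windows hold. The second, at −205 to −199, match the FOXO letters GTAAACA on the minus strand, which 3.76% hold on either strand. Of the 9 called genes 7 had a window in the table, and Trim63 was the only 1 of them with either match.
Trim63: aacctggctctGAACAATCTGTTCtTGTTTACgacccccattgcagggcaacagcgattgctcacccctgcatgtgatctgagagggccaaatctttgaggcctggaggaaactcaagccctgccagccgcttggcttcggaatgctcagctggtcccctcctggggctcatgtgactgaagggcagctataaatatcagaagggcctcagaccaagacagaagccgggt

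**Figure D4:**
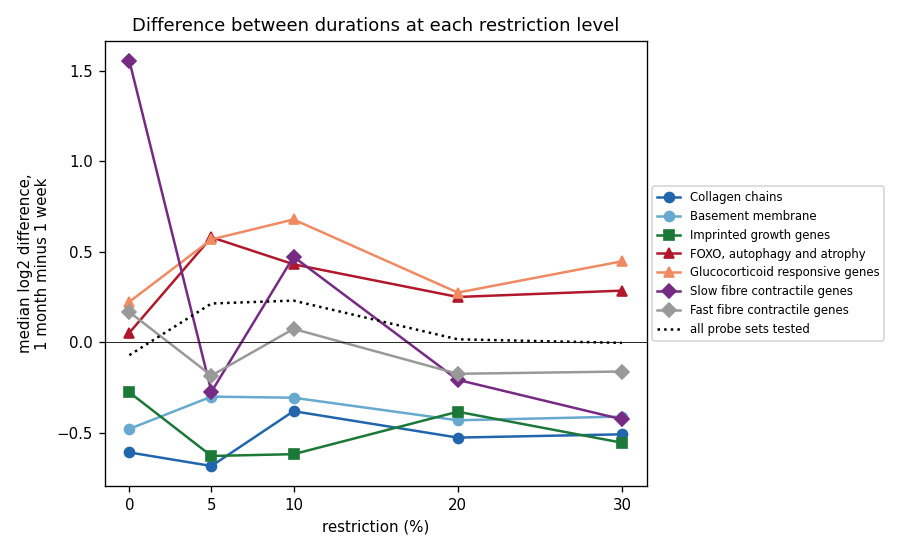
Median log2 difference between 1 month and 1 week (vertical axis) at each restriction level (horizontal axis, percent) for 7 gene groups, with the median of all probe sets tested as a dotted line; each point rests on 1 pair of arrays. Collagen chains stayed between −0.68 and −0.38 at all levels, FOXO genes between 0.05 and 0.58, and slow fibre genes stood at 1.56 in the control pair.

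Several glucocorticoid responsive genes were higher after 1 month. Of 12 tested 7 were higher, against 4.07% of all genes, and 0 lower (median 0.49, and 0.20 with signals as deposited). Without each level in turn 6 to 8 were higher, without the variance trend 4, and with signals as deposited 6 were higher and 2 lower. Cebpd, a transcription factor that the steroid induces in muscle, had 11.9, 5.61, 6.38, 8.92 and 10.8 times the array median at 1 week and 14.6, 17.2, 14.2, 17.6 and 17.8 at 1 month. The lowest 1-month array was above the highest 1-week array, which was the control, and the rise was 1.94-fold (0.95 ± 0.15, adjusted p = 0.00118). Tsc22d3, the anti-inflammatory protein GILZ, went from 76.7, 69.3, 69.7, 79.3 and 94.0 to 111, 102, 108, 123 and 161. It rose at all levels by similar amounts, without overlap (0.63 ± 0.08, adjusted p = 0.000176). Cebpb rose by 0.82 ± 0.11, Errfi1, an inhibitor of the EGF receptor, by 0.84 ± 0.16, and Fkbp5, a chaperone of the receptor, by 0.65 ± 0.12. Dusp1 (−0.08) and Sgk1 (0.06), which are also induced by the steroid, did not pass, and Nr3c1, the receptor itself, was at 0.23. Of the 7 called genes 6 had a promoter window, and 0 of these held the palindrome. In the control pair the median was 0.05 for the FOXO list and 0.22 for this list, with −0.07 for all probe sets, and at 5% CR the medians were 0.58, 0.57 and 0.22. Whether the group differences varied with restriction was not tested as such.

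Signalling by insulin, the IGFs and growth hormone was read from 18 genes. Of these, 4 were higher and 1 lower, beside 4.07% and 2.14% of all genes. The rises came to 2 without 10% or 20% CR, and with signals as deposited 2 were higher and 8 lower. Igf1, which muscle makes for its own growth, fell by 0.55 ± 0.12 (adjusted p = 0.0131), with 16.5, 11.8, 15.8, 9.55 and 9.70 at 1 week and 11.2, 7.26, 8.42, 7.80 and 8.04 at 1 month. It was lower at every level, although the 1-month control (11.2) lay inside the 1-week range, and it did not pass without 10% CR (−0.45, adjusted p = 0.0575). Ghr, the growth hormone receptor, rose by 0.44 ± 0.11 but was called only with all levels or without the controls. Grb14, an adaptor that inhibits the insulin receptor, had 6.65, 7.65, 8.93, 8.49 and 8.74 and then 12.0, 11.8, 14.1, 12.1 and 12.5. It rose 1.55-fold with no overlap (0.63 ± 0.11, adjusted p = 0.00261). Pik3ip1, which holds back PI3 kinase, increased by 0.67 ± 0.13, and Cish, an inhibitor of growth hormone signalling, by 0.85 ± 0.22, with pairs that were level in the controls (0.11) and at 30% CR (0.01). Both lost their call when the 1-week control and 5% arrays were exchanged (adjusted p = 0.0638 and 0.259 in limma), and Cish also with quantile normalization and with signals as deposited. Grb10, the adaptor of the same family as Grb14 that is counted above with the imprinted genes, was lower.

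Energy metabolism differed at single genes. Beside 4.07% of all genes called higher, the share was 10.0% of the glycolysis and glycogen list. It was 2.56% to 5.88%, near that of all genes, in the lists for respiration, fat oxidation, fat synthesis and branched-chain amino acid breakdown. Of 20 glycolysis and glycogen genes 2 were higher and 0 lower, but with signals as deposited 1 was higher and 14 lower, and with log2 of signal plus 32 1 and 9. Slc2a4, the insulin-dependent glucose transporter GLUT4, had 52.2, 51.4, 59.9, 71.2 and 79.9 after 1 week and 79.0, 88.4, 93.0, 88.4 and 102 after 1 month. All 5 pairs were higher, the ranges overlapped only through the 1-month control, and the rise was 1.45-fold (0.54 ± 0.09, adjusted p = 0.00193). Pfkfb1, which sets the level of an activator of glycolysis, rose by 0.39 ± 0.11 and lost its call without 5%, 10%, 20% or 30% CR (adjusted p = 0.0609 to 0.186). Of 39 genes of the respiratory chain and citric acid cycle 1 was higher, Ndufa5 (0.52 ± 0.13), whose 10% pair went the other way (−0.06). This call was lost without the controls or 5% CR and with quantile normalization, and with signals as deposited 35 of the 39 were lower and 0 higher. Of 24 genes of fatty acid oxidation 1 was higher, Pdk4, the kinase that holds back glucose oxidation (0.34 ± 0.07), and of 17 for fat synthesis 1, Srebf1, their transcription factor (0.50 ± 0.12). Pdk4 was not called without 5% CR (0.29, adjusted p = 0.0542), and Srebf1 not with quantile normalization, with loess, with the exchange of the 1-week arrays, or without any level but 5% CR (adjusted p = 0.0544 to 0.106). With signals as deposited 9 of the 24 and 6 of the 17 were lower and 0 higher. Bckdha, a subunit of the enzyme that commits branched-chain amino acids to breakdown, was the 1 called of 17 (0.46 ± 0.12), and all 17 differences were positive (median 0.22, and −0.08 with signals as deposited). In this list 4 genes were higher without the controls and 0 without 5%, 10% or 30% CR. Of 17 cholesterol genes, 25 ribosome biogenesis genes, 30 proteasome subunits and 8 polyamine genes, 0 were called in limma, and 3, 3, 7 and 3 of them had an unadjusted p under 0.05. With signals as deposited 5, 12, 17 and 3 were lower, and 3 proteasome subunits were higher without the controls.

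Of 27 detoxification and antioxidant enzymes 6 were higher and 0 lower, beside 4.07% and 2.14% of all genes (median 0.14, and −0.15 with signals as deposited). Higher calls came to 2 without 20% CR, 3 without 5% CR, 4 without 30% CR and 1 without the variance trend, and with signals as deposited 1 was higher and 10 lower. Gsta1 and Gstm2, glutathione transferases, rose by 0.62 ± 0.12 and 0.57 ± 0.14, Sult1a1, a sulfotransferase, by 0.55 ± 0.14, Gpx3, the secreted glutathione peroxidase, by 0.47 ± 0.11 and Cat, or catalase, by 0.34 ± 0.08. Of 20 chaperone and stress genes of the endoplasmic reticulum 3 were higher. This was 1 without 10%, 20% or 30% CR, with 3 higher and 4 lower after quantile normalization and 1 higher and 10 lower with signals as deposited. Herpud1, which helps to clear misfolded proteins there, had 15.2, 19.3, 21.7, 40.0 and 52.8 at 1 week and 29.6, 48.8, 60.5, 57.1 and 72.9 at 1 month. It rose with restriction at both durations, so that the ranges overlapped, yet all 5 pairs were higher at 1 month (0.95 ± 0.13, adjusted p = 0.000511). The others were the chaperone Dnajb9 (0.40 ± 0.10) and the transcription factor Atf4 (0.33 ± 0.08), whose calls were lost without 10%, 20% or 30% CR, and that of Dnajb9 also without 5% CR. Asns, or asparagine synthetase, which Atf4 activates, fell by 1.06 ± 0.23 and was the 1 called of 9 serine and amino acid stress genes (11.1%). Asns was dim, with a mean deposited signal of 25.45, and its difference was −0.47 with log2 of signal plus 32. Hspb1, a small heat shock protein, was the 1 called of 18 (5.56%, near the 6.21% of all genes called either way). It fell by 0.42 ± 0.08 (adjusted p = 0.0074).

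Among 16 immediate-early genes, which respond to stimuli within minutes, 5 were higher and 2 lower, beside 4.07% and 2.14% of all genes. With 10% or 20% CR left out 3 were higher, and with signals as deposited 1 was higher and 3 lower. Klf4 rose by 0.67 ± 0.12, Ccn1 by 0.67 ± 0.15, Klf2 by 0.56 ± 0.12 and Ccn2 by 0.49 ± 0.12, and 1 of the 3 other probe sets of Klf2 had the opposite sign without passing. Egr1 was the larger of the falls. Of 15 clock genes Nfil3, a clock output repressor, rose by 0.77 ± 0.17 and Nr1d1, the repressor REV-ERB alpha, fell by 0.44 ± 0.11. They were the only clock genes called (13.3%, against 6.21% of all genes either way). Nfil3 lost its call with the exchange of the 1-week arrays (adjusted p = 0.147 in limma) and with signals as deposited, and Nr1d1 without 5%, 10%, 20% or 30% CR (adjusted p = 0.0571 to 0.102). Of 18 actin, tubulin and regulator genes 3 were lower, Marcks, which binds actin at the membrane, by 0.53 ± 0.11, Tpm4, a nonmuscle tropomyosin, by 0.45 ± 0.10, and Actg1, nonmuscle actin, by 0.32 ± 0.09, and 17 of 18 differences were negative. Without 5%, 20% or 30% CR 1 was called lower and without the variance trend 0, whereas it was 10 with quantile normalization, 13 with log2 of signal plus 32 and 16 with signals as deposited.

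Markers of other cells moved in part. For comparison, 4.07% of all genes were called higher and 2.14% lower. Of 2 erythroid markers tested both were lower. Hbb, a globin of a gene family whose members can share probes, had 95.6, 83, 75.3, 74.5 and 95.2 at 1 week and 52.0, 56.1, 51.7, 44.7 and 54.4 at 1 month, without overlap (−0.71 ± 0.09, adjusted p = 0.000164), and Alas2, the heme enzyme of red cell precursors, fell by 0.97 ± 0.21. Alas2 was dim, with a mean deposited signal of 27.89, and its difference was −0.48 with log2 of signal plus 32. Of 17 endothelial markers 2 were lower, the peptide Apln (−1.05 ± 0.17) and its receptor Aplnr (−0.91 ± 0.18), and the summed level was 69.0 to 91.7 and 66.5 to 81.2. Apln and Aplnr had mean deposited signals of 32.88 and 37.07, and differences of −0.59 and −0.55 with log2 of signal plus 32. For 16 macrophage markers 0 were called in limma (2 at an unadjusted p under 0.05), and the summed level was 48.5 to 64.5 and 43.3 to 89.3. Of 16 antigen presentation genes, class I and class II together, 2 were higher. These were the class II genes RT1-Ba (0.73 ± 0.12) and Cd74, the invariant chain (0.41 ± 0.11), and a further RT1-Ba probe set had the opposite sign without passing. Cd74 was not called without 5%, 20% or 30% CR, with quantile normalization or with signals as deposited, where 4 genes of the list were lower. Of 19 interferon genes Ifit2 (−0.51 ± 0.13) and Bst2 (−0.40 ± 0.11) were lower. These calls needed nearly all pairs, since Bst2 was lost without any 1 level (adjusted p = 0.0752 to 0.118) and 0 of the 19 were called without the controls, 20% or 30% CR. Of 9 adipocyte markers Pnpla2, the fat-splitting lipase that muscle also makes, was higher (0.39 ± 0.11) but not without 5%, 10%, 20% or 30% CR (adjusted p = 0.0756 to 0.145), with summed levels of 105 to 149 and 106 to 167. Of 3 lymphocyte, 2 mast cell and 5 Schwann cell markers 0 were called (0, 0 and 1 at an unadjusted p under 0.05), and most genes of those lists were too dim to test.

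The largest rise of a named gene was that of Cst7, or cystatin F, an inhibitor of cathepsins. Its signals were 3.02, 1.97, 2.65, 1.93 and 2.67 after 1 week and 5.52, 6.58, 9.34, 7.54 and 7.35 after 1 month. All 1-month arrays were above all 1-week arrays, and the rise was 2.97-fold (1.57 ± 0.15, adjusted p = 1.99e-05). Lmod1, leiomodin 1, an actin nucleator of smooth muscle, went from 1.57, 1.53, 1.47, 1.30 and 2.68 to 3.61, 4.09, 6.18, 4.04 and 5.03. It rose 2.73-fold without overlap (1.45 ± 0.16, adjusted p = 8.95e-05), and was the 1 called of 12 smooth muscle and pericyte markers, whose median was −0.07. Il6r, the interleukin 6 receptor, rose by 1.32 ± 0.17, with 0.857 to 2.84 on 1-week arrays and 1.91 to 6.74 on 1-month arrays, and Arrdc2, an arrestin domain protein, by 1.04 ± 0.12. G0s2, an inhibitor of the lipase Pnpla2, rose by 1.15 ± 0.24, and its differences ran from 0.10 at 5% CR to 2.25 at 30% CR. It was not called with signals as deposited, quantile normalization or loess, nor with the exchange of the 1-week arrays or without the block. Further rises among the 15 largest were Iqub (1.16), Golm1 (1.11), Art5 (0.97), Creg1 (0.92), Slx9 (0.89) and Tle1, a transcriptional corepressor (0.88). Slx9 passed narrowly (adjusted p = 0.0444), and not without 5%, 10%, 20% or 30% CR. Iqub and Slx9 were dim, with mean deposited signals of 20.49 and 19.68. Their differences were 0.44 and 0.32 with log2 of signal plus 32.

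Falls outside the groups above included Gatm, which makes the precursor of creatine. It had 15.2, 10.2, 10.1, 7.88 and 7.34 at 1 week and 7.53, 4.18, 4.01, 3.74 and 2.86 at 1 month, declined with restriction at both durations and was lower in each pair (−1.21 ± 0.12, adjusted p = 1.99e-05). Cdh22, a cadherin, fell by 1.35 ± 0.24, Tceal5 by 1.26 ± 0.13, Tmem229b by 1.19 ± 0.16 and Pemt, an enzyme of phosphatidylcholine synthesis, by 1.10 ± 0.25. Cdh22 and Pemt were dim, with mean deposited signals of 20.55 and 23.59. Their differences were −0.53 and −0.47 with log2 of signal plus 32. Tceal5 was the brightest of these, with 13.3 to 18.2 on 1-week arrays and 5.61 to 7.61 on 1-month arrays and no overlap.

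A product term of duration and restriction tested whether the durations differed more, or less, as restriction rose. In limma 0 of 15521 probe sets were called (0.0%), 686 had an unadjusted p under 0.05, and the smallest adjusted p was 0.931. On simulated arrays this fit recovered 20% of product terms of 0.5 log2 per 10 percentage points and 94% of those of 1.5. The absence of calls therefore does not show that the differences were equal at all levels. The 5 sets of differences were only loosely alike, with correlations across probe sets, which are not independent replicates, of 0.14 to 0.46 over the 10 pairs of levels. Their medians over all probe sets were −0.07 for the controls, 0.22 at 5%, 0.23 at 10%, 0.02 at 20% and 0.00 at 30% CR, so at 5% and 10% CR a gene with a difference near 0.2 was at the middle of all.

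Calls of moderate size often rested on all 5 pairs. Of the 111 named genes called, 47 were called under every alternative computed for them, among them 23 of the 30 largest. Leaving out the variance trend alone lost the call of 55. These 47 included Cdkn1c, Igf2, Mest, Myh3, Mymk, Nes, Stmn1, both type IV collagens, Col1a2, the 3 lysyl oxidases listed, Nid1, Fbxo32, Sesn1, Cebpb, Cebpd, Tsc22d3, Grb14 and Cst7. All alternatives used the brightest probe set of a gene. The other probe sets tested did not pass for Lox, Loxl2, Thy1, Smoc2, Mmp14, Nusap1, Igf1, Ghr, Slc2a4, Gabarapl1, Tpm4, Aplnr, Klf2 and RT1-Ba. Apart from 1 each of Klf2 and RT1-Ba, they had the same sign as the brightest. Leaving out 1 level lost the call of 44 genes, with adjusted p-values in limma of 0.0515 to 0.216, and all kept their direction. Bst2 was lost without each of the 5 levels. Another 12 were lost without 4 of the 5, with Mmp14 and Srebf1 called without 5% CR, Mef2d and Nusap1 without 10% CR, and Dnajb9, Ghr, Lum, Nr1d1, Pfkfb1, Plagl1, Pnpla2 and Slx9 without the controls. The 6 lost without 3 levels were Ifit2, Atf4, Bckdha, Actg1, Cd74 and Tpm4. Of the 15 lost without 2 levels, Col11a1 (−0.75 and −0.85) and Ndufa5 depended on the control and 5% pairs, Chrna1 on the control and 20% pairs, Klf15 (0.43 and 0.40) and Sult1a1 (0.42 and 0.43) on the 5% and 10% pairs, Gstm2 on 5% and 20%, Fkbp10 on 5% and 30%, Ccn2, Ccnb2 and Cish (0.81 and 0.57) on 10% and 20%, and Cat, Gpx3, Ndn, Pi16 and Smoc2 on 20% and 30%. The 10 lost without 1 level were Pdk4 (0.29) and Pemt (−0.82) without 5% CR, Alas2 (−0.76) and Igf1 (−0.45) without 10%, Asns (−0.81), Myog (−0.46), Nid2 (−0.50), Pcolce (−0.49) and Postn (−0.51) without 20%, and Ccn1 (0.53) without 30%. Exchanging the 1-week control and 5% arrays lost the call of 8, namely Actg1, Cish, G0s2, Nfil3, Pik3ip1, Plagl1, Srebf1 and Sult1a1.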

How the data were processed

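The authors hybridized 1 pool of RNA per group to an Affymetrix Rat Genome 230 2.0 array, and deposited 1 MAS5 signal intensity per probe set and array, linear and scaled per array. The table holds 31099 probe sets and no detection or change calls. From it, signals below 0.1 were set to 0.1, converted to log2 and centred on the median of each array over the 31042 probe sets that are not controls. Probe sets with a mean log2 signal at or above the 50th percentile (a mean signal of 17.8) were tested. Of the 31042, 20826 carried 1 gene, 436 several and 9780 none, by platform annotation, and 20758 were matched to RefSeq.

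The model had duration and restriction level as a block (limma 3.58.1 in R 4.3.3, lmFit and eBayes with trend, 4 residual degrees of freedom, Benjamini-Hochberg adjustment). The block pairs arrays by the restriction level in the labels. Since each group had 1 array, the errors start from how far the 5 pairs disagree. The eBayes step then draws the variance of each probe set towards that of probe sets of similar signal. A printed SE is therefore not the spread of the gene's own 5 differences alone. Each array averages 5 rats, and the number of arrays limits the precision. The product of duration and restriction percent was fitted separately with 6 residual degrees of freedom. Scripts were tested on simulated data with the residual spread of these arrays. The duration fit recovered 19% of log2 differences of 0.5 and 78% of those of 1. A list with 0 called can therefore still hold differences of moderate size.

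The comparison, its members and the 45 gene lists (867 entries, of which 3 had no match and 671 distinct genes were tested) were chosen with earlier results of these data known. Named genes were the 15 largest called differences in each direction with the same sign at all 5 levels and 1 gene, and up to 5 called members of each list (or the 2 with the smallest p); others are given as list members, or as read after their values were seen. Fold sizes are powers of 2 of the mean log2 difference. The effect of other scalings, filters, models and left-out levels is given at the end.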

Additional observations from a re-analysis of the deposited data

How the results depend on the processing

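No named gene that was called changed direction under any alternative, while 4 other called probe sets changed sign with signals as deposited. The counts moved with the scaling, the filter and the levels used. With signals as deposited 171 probe sets were higher and 4694 lower (20 of them 2-fold lower at all 5 levels), and 20 list members were higher and 339 lower. With quantile normalization and cyclic loess 761 and 757 were lower. With no filter the counts were 290 higher and 199 lower, with 1 and 10 at 2-fold at all levels and 28 list members higher. With log2 of signal plus 32 they were 287 and 1219, with 3 at 2-fold lower and 26 and 152 list members. Without the variance trend in eBayes 129 were higher and 169 lower. With the 1-week control and 5% arrays exchanged 866 were higher and 400 lower, and 3 were 2-fold higher at all levels. A minimum of 0.5 in place of 1 on the log2 scale gave 39 higher and 61 lower at all 5 levels. The share of calls that were higher was 63.2%, and 3.51% as deposited, 45.4% with quantile normalization, 45.3% with loess, 19.1% with log2 of signal plus 32, 43.3% without the variance trend, 73.7% without the controls, 50.3% without 5% CR and 49.8% without 10% CR. With a 70th percentile filter 665 were higher and 281 lower.

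The replicate block here is the restriction level. With no replicate block and the level as a covariate 937 were higher and 428 lower, and with duration alone 676 and 341. Without 1 level in turn 284 (20% CR) to 795 (controls, that is the 8 restricted arrays alone) were higher and 198 (20% CR) to 299 (10% CR) lower. In the same order of fewest and most, 0 (5% or 20% CR) and 3 (controls) were 2-fold higher and 6 (5% or 30% CR) and 9 (controls) lower at all levels kept, 31 (20% CR) and 63 (controls) list members were higher and 43 (20% CR) and 63 (controls) lower. For the product term the count was 0 to 13 without 1 array, with 13 without the 1-week 5% CR array, 2 without the 1-month control and 0 without each of the other 8. Leaving out 1 array of a pair in the block fit leaves out its pair. The causes of these changes were not tested. Array handling cannot be told apart from duration, dim genes such as most of the cell cycle list could not be tested, and the number of arrays limits what can be called. The totals of 2-fold differences and of members over all lists were not recomputed for fits without the block or the trend, and the counts of single lists without the trend were added after seeing the data.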
